A study of Mus musculus with 6 samples.

Results

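Il16, Plek, Grap, Pik3ap1, Ccrl2, Ifit3 and Trim6, 7 genes of blood-cell signalling, chemoattractant binding or the interferon response, were followed in the testis of mice given nano-sized antimony trioxide (Nano-Sb2O3). They were taken by gene symbol from the deposited expression table, which holds 196 genes, and all 7 were found. C57BL/6 mice, 6 weeks old when obtained and acclimated before the experiment, were exposed by intranasal instillation over 16 days, 5 to a group, and poly(A) RNA of whole testis was sequenced from saline controls and from mice at the high dose of 7.5 mg/kg/d. The table holds 3 libraries from each group, and its columns of group means are headed CON (libraries con_1 to con_3, here CON 1 to CON 3) and T (libraries n1_4, n3_3 and n3_6, here T 1 to T 3). The sample titles go against these names, because the con libraries carry titles of high-dose mice and the n libraries carry titles of control mice. The groups are therefore called CON and T as in the table, and every direction below would invert in terms of exposure if the titles were right.

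The 196 genes were selected by the authors on the same T against CON comparison that is examined here, so a difference between the groups, and its direction, was part of the reason these genes are in the table, and the tests below describe values within a selected list. Values are in TPM, a unit that scales reads for transcript length and for the library total, and the number of reads behind them is unknown, so no counting error or detection limit can be given. The listed genes summed to between 880 and 1776 TPM in a library, and between 22 and 29 of them were at 0 in the CON libraries against 40 to 49 in the T libraries. None of the 7 genes was at 0 in any library. The labelled tissue could not be checked against its markers, because none of the 10 germ cell, 8 Sertoli cell, 7 Leydig cell and 26 leukocyte markers looked for is among the 196 genes.

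Leukocytes enter tissue along gradients of chemoattractants, which they sense through receptors of the chemokine family, and inside the cell adaptor proteins pass the signal from receptors on to Ras and phosphatidylinositol 3-kinase (PI3K). Interferons act through a second route, in which transcription factors bind response elements in the promoters of interferon-stimulated genes. The normal testis holds resident macrophages between the tubules, and its germ cells are shielded from the immune system by the blood-testis barrier. In RNA from whole testis, fewer cells of a type and less RNA per cell cannot be told apart.

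The promoters of 3 of the genes are shown because they are the ones the motif search and the results turn on, namely Ifit3 and Grap, which held matches to interferon or inflammatory motifs, and Trim6, the gene whose difference passed the test and whose promoter held no match. Each is the 250 bases before the start of the canonical transcript on GRCm39, written 5′ to 3′ on the strand of the gene. Capitals mark a motif match. The Ifit3 sequence lies at chr19:34560649-34560898 on the plus strand, the Grap sequence at chr11:61543801-61544050 on the plus strand and the Trim6 sequence at chr7:103867752-103868001 on the plus strand.
Ifit3: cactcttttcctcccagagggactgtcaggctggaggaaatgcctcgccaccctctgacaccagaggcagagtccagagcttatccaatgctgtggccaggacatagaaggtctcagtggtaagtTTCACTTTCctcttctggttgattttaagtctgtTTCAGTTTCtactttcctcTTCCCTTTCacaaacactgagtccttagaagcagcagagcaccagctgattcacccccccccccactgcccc
Grap: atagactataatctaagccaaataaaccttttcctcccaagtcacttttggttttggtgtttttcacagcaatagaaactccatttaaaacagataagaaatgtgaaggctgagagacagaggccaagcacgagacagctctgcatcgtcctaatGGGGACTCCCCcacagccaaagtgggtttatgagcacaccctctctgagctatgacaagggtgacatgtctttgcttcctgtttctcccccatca
Trim6: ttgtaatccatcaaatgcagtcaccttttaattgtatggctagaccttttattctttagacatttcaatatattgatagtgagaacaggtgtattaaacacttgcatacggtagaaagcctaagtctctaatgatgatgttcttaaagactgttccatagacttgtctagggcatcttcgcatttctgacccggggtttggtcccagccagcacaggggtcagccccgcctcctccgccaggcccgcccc

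The search covered both strands from 250 bases before to 50 bases after the start. The core of the interferon-stimulated response element, GAAANNGAA, occurred in 8.78% of 21770 promoters of protein-coding genes and in 1 of the 7 genes, Ifit3. Ifit3 held 3 matches that did not overlap each other, all on the strand opposite to the gene, which read on the gene's strand as TTCACTTTC from 125 to 117 bases before the start, TTCAGTTTC from 91 to 83 bases before it and TTCCCTTTC from 72 to 64 bases before it. The NF-kappaB consensus occurred in 4.87% of promoters and in Grap only among the 7, as a match on each strand, from 95 to 86 and from 94 to 85 bases before the start, which overlap each other. The PU.1/ETS core GAGGAAGT, found in 3.07% of promoters, occurred in none of the 7. These matches describe the letters of the promoters and carry no measurement of binding.

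**Figure D1:**
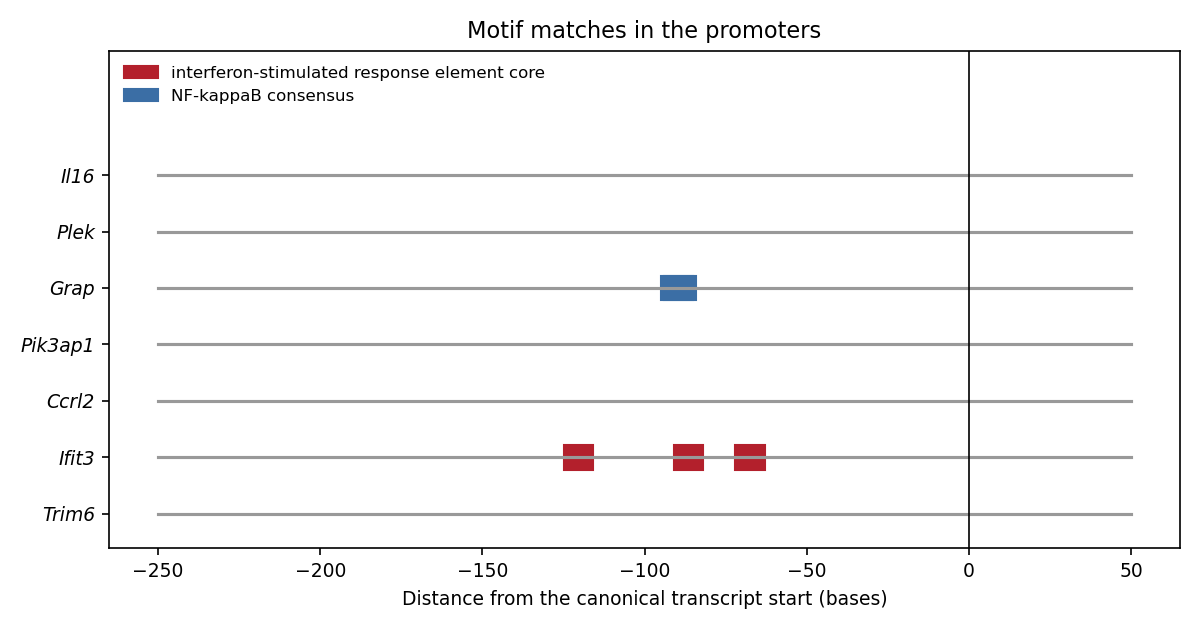
Motif matches in the promoters of the 7 genes. The x axis is the distance in bases from the canonical transcript start, each grey line is the searched window of 1 gene, and coloured boxes are matches on either strand. Ifit3 carries 3 matches to the interferon-stimulated response element core, Grap carries overlapping matches to the NF-kappaB consensus, and the other genes carry neither of them.

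Between the groups, Trim6 was the 1 gene of the 7 that passed the test, a call that held in 4 of the 12 alternatives tried. It was higher in the T libraries, at 4.15 times the CON mean. Ccrl2 was also above every CON library in every T library, and Plek was below, but neither passed the test. Grap and Pik3ap1 had higher means in T and Il16 and Ifit3 had lower means in T, each with overlap between the groups. The test was limma on log2(TPM + 1), fitted over all 196 genes with Benjamini-Hochberg adjustment, and a gene was called at an adjusted p under 0.05 with a difference of at least 1 on this scale, which understates the change of genes at low TPM. By this rule 1.53% of the listed genes were called higher in T and 2.55% lower, against 1 and 0 of the 7 genes. Plek could not have been called lower by this rule, because its CON mean on this scale was 0.60, short of 1. Every T library lay above every CON library for 20.4% of the listed genes and below for 42.3%, against 2 and 1 of the 7.

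**Figure D2:**
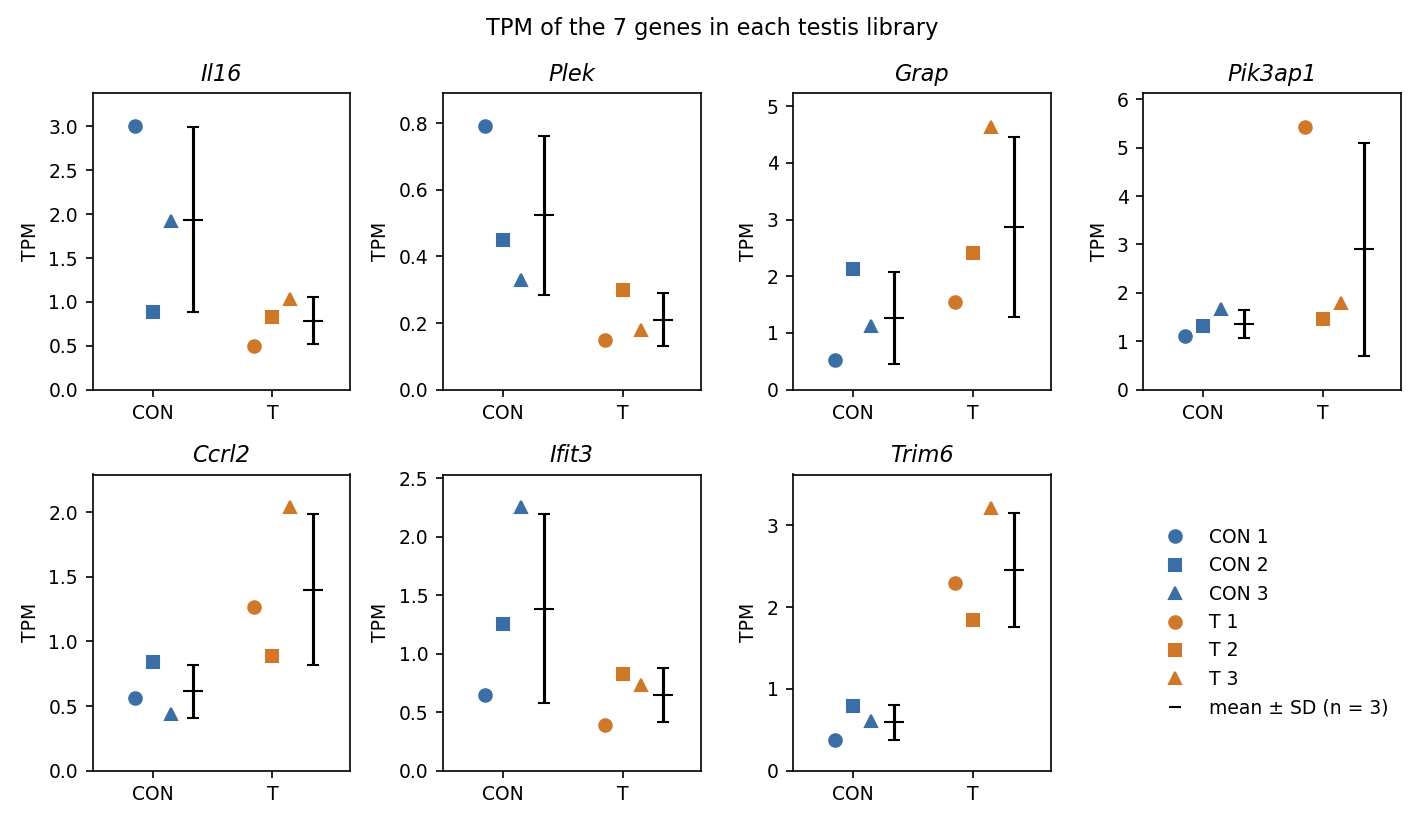
TPM of the 7 genes in each testis library. Each panel is 1 gene with its own y axis in TPM starting at 0, blue points are the CON libraries, orange points are the T libraries, and black bars are the mean ± SD of 3 libraries. The groups are separate for Trim6, Ccrl2 and Plek, and a single library, T 1, stands far above the rest for Pik3ap1.

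Among the chemoattractant genes, Il16 encodes a precursor whose released part attracts CD4-bearing cells. Il16 (ENSMUSG00000001741), a gene of 19 exons in its canonical transcript, occupies bases 83292016 to 83395370 of chromosome 7 on the minus strand. Il16 was at 3.00, 0.89 and 1.92 TPM in CON 1 to CON 3 and at 0.50, 0.83 and 1.03 TPM in T 1 to T 3. CON 2 sat inside the range of the T libraries, and CON 1 and CON 3 sat above all of them. The mean was 1.94 ± 1.06 TPM in CON and 0.787 ± 0.268 TPM in T (SD, n = 3 each). On the log2(TPM + 1) scale the difference was -0.66 with a standard error of 0.31 (95% CI -1.44 to 0.12), and it did not pass the test (limma, adjusted p = 0.124). It was -0.41 without CON 1 and -0.95 without CON 2, where the adjusted p reached 0.0492 but the difference stayed short of 1. Annotated exons of Stard5, a gene on the opposite strand, share 16.3% of the exonic bases of Il16, and whether reads were counted by strand is not given in the sources used here.

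Ccrl2 encodes an atypical receptor of the chemokine receptor family that binds the chemoattractant chemerin without signalling itself. Ccrl2 (ENSMUSG00000043953), a gene of 2 exons in its canonical transcript, occupies bases 110883554 to 110886591 of chromosome 9 on the minus strand. Ccrl2 was at 0.56, 0.84 and 0.44 TPM in CON 1 to CON 3 and at 1.27, 0.89 and 2.04 TPM in T 1 to T 3. All T libraries lay above all CON libraries, and T 2 exceeded CON 2 only narrowly. The means were 0.613 ± 0.205 TPM in CON and 1.40 ± 0.586 TPM in T (SD, n = 3 each). The difference on the log2(TPM + 1) scale was 0.55 with a standard error of 0.22 (95% CI -0.0019 to 1.11), which did not pass the test (limma, adjusted p = 0.105). It was 0.37 without T 3.

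Of the 20 chemokine and chemoattractant receptor genes looked for, Il16 and Ccrl2 were the 2 in the table, 1 lower and 1 higher in T, and neither was called. The genes for the CD4 protein that Il16 signals through, for chemerin (Rarres2) and for its signalling receptor (Cmklr1) were among those looked for and are not among the 196.

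None of the 3 adaptor and substrate genes, Grap, Pik3ap1 and Plek, passed the test. Grap encodes an adaptor related to Grb2 that links receptors of lymphocytes to the Ras pathway. Grap (ENSMUSG00000004837), a gene of 5 exons in its canonical transcript, occupies bases 61544051 to 61563610 of chromosome 11 on the plus strand. Grap was at 0.53, 2.13 and 1.12 TPM in CON 1 to CON 3 and at 1.55, 2.41 and 4.63 TPM in T 1 to T 3. T 3 was the highest library, and CON 2 lay between T 1 and T 2. The T library was the higher in 8 of the 9 pairs of a T and a CON library. The means were 1.26 ± 0.809 TPM in CON and 2.86 ± 1.59 TPM in T (SD, n = 3 each). Its difference of 0.76 on the log2(TPM + 1) scale had a standard error of 0.40 (95% CI -0.24 to 1.76) and did not pass the test (limma, adjusted p = 0.146). It was 0.51 without CON 1 and 0.45 without T 3.

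Pik3ap1 encodes BCAP, an adaptor that recruits PI3K to receptors of B cells and to Toll-like receptors. Pik3ap1 (ENSMUSG00000025017), a gene of 17 exons in its canonical transcript, occupies bases 41260816 to 41373548 of chromosome 19 on the minus strand. Pik3ap1 was at 1.10, 1.31 and 1.66 TPM in CON 1 to CON 3 and at 5.43, 1.47 and 1.79 TPM in T 1 to T 3. T 1 held most of the difference, since T 2 and T 3 lay close to CON 3 and T 2 lay below it. The means were 1.36 ± 0.283 TPM in CON and 2.90 ± 2.20 TPM in T (SD, n = 3 each), so that the SD was 75.9% of the mean in T against 20.9% in CON. The difference on the log2(TPM + 1) scale was 0.59 with a standard error of 0.40 (95% CI -0.40 to 1.59; limma, adjusted p = 0.210). It fell to 0.16 without T 1.

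Plek encodes pleckstrin, a major protein kinase C substrate of platelets and white blood cells that binds phosphoinositides. Plek (ENSMUSG00000020120), a gene of 10 exons in its canonical transcript, occupies bases 16921206 to 17002381 of chromosome 11 on the minus strand. Plek was at 0.79, 0.45 and 0.33 TPM in CON 1 to CON 3 and at 0.15, 0.30 and 0.18 TPM in T 1 to T 3. All T libraries lay below all CON libraries, with CON 3 and T 2 next to each other. With a level rank of 153 among the 196 genes, it was the lowest of the 7 in mean TPM, with means of 0.523 ± 0.239 TPM in CON and 0.210 ± 0.0794 TPM in T (SD, n = 3 each). On the log2(TPM + 1) scale the difference was -0.32 with a standard error of 0.16 (95% CI -0.72 to 0.08), which did not pass the test (limma, adjusted p = 0.133). It was -0.20 without CON 1. A difference of -1 was out of reach for Plek, because its CON mean on this scale was 0.60, so the missing call was fixed in advance. Annotated exons of Cnrip1, a gene on the opposite strand, share 3.45% of the exonic bases of Plek.

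Of 25 genes of PI3K and adaptor signalling looked for, 5 were in the table, 4 higher in T and 1 lower, and 0 were called, beside 67 of the 196 listed genes with a higher mean in T and 1.53% called higher. Besides Grap, Pik3ap1 and Plek these were Spp1, which encodes the secreted matrix protein osteopontin, and Efna3, which encodes an ephrin ligand. The list holds 3 of the 7 genes themselves and was chosen with earlier results of these data known. The count of 5 and its directions are therefore not a separate result about the pathway. Spp1 was at 0.22, 0.48 and 0.23 TPM in CON 1 to CON 3 and at 1.28, 0.87 and 1.24 TPM in T 1 to T 3, a difference of 0.70 on the log2(TPM + 1) scale (limma, adjusted p = 0.0506). Efna3 was at 1.95, 2.84 and 1.44 TPM in CON 1 to CON 3 and at 4.34, 4.35 and 6.82 TPM in T 1 to T 3, a difference of 1.00 on that scale (limma, adjusted p = 0.0637). Every T library lay above every CON library for both, as it did for 20.4% of the listed genes. The catalytic and regulatory PI3K subunits and the Akt kinases of the list are not among the 196.

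Of the genes linked to interferon, Trim6 was higher in T and passed the test, and Ifit3 had a lower mean in T and did not pass. Trim6 encodes a ubiquitin ligase of the tripartite motif family that takes part in type I interferon signalling. Trim6 (ENSMUSG00000072244), a gene of 8 exons in its canonical transcript, occupies bases 103868000 to 103884359 of chromosome 7 on the plus strand. Trim6 was at 0.37, 0.79 and 0.61 TPM in CON 1 to CON 3 and at 2.30, 1.84 and 3.21 TPM in T 1 to T 3. The lowest T library was above the highest CON library by more than the whole range within CON. The means were 0.590 ± 0.211 TPM in CON and 2.45 ± 0.697 TPM in T (SD, n = 3 each). The difference on the log2(TPM + 1) scale was 1.11 with a standard error of 0.20 (95% CI 0.60 to 1.61; limma, adjusted p = 0.0373), and it ranked 11 of 196 by its p. It kept its sign under all 12 alternatives tried and was called in 4 of them, with adjusted p between 0.0239 and 0.117. The call was lost without CON 1 (adjusted p = 0.0643), without CON 3 (0.0835), without T 1 (0.0788) and without T 3 (0.117), and the difference itself stayed between 0.95 and 1.24 when any 1 library was left out. Exons of Gm71930, a long non-coding RNA gene on the opposite strand, share 7.61% of the exonic bases of Trim6.

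Ifit3 encodes an antiviral protein with tetratricopeptide repeats that is among the genes most strongly induced by type I interferon. Ifit3 (ENSMUSG00000074896), a gene of 2 exons in its canonical transcript, occupies bases 34560899 to 34566443 of chromosome 19 on the plus strand. Ifit3, whose promoter held the 3 response element matches shown above, was at 0.65, 1.25 and 2.25 TPM in CON 1 to CON 3 and at 0.39, 0.83 and 0.73 TPM in T 1 to T 3. CON 1 lay inside the range of the T libraries, and CON 3 was the highest. The means were 1.38 ± 0.808 TPM in CON and 0.650 ± 0.231 TPM in T (SD, n = 3 each). The difference on the log2(TPM + 1) scale was -0.49 with a standard error of 0.28 (95% CI -1.20 to 0.23; limma, adjusted p = 0.171), and it was -0.23 without CON 3. Within the exons of Ifit3, 41.8% of windows of 50 bases and 11.3% of windows of 150 bases, the read length, have another copy somewhere in the genome, so the deposited value of Ifit3 depends on how shared reads were assigned. For the other 6 genes no window of 150 bases had one.

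Of 32 genes of the interferon response looked for, Ifit3 and Trim6 were the 2 in the table, and 1 of them was called, higher in T. Ifit1, Ifit2, Isg15, Irf7 and Mx1, which are induced by type I interferon together with Ifit3, are not among the 196. Of 13 inflammatory genes looked for, 5 were in the table, among them Spp1, which is also counted in the PI3K list. All 5 had higher means in T, against 67 of the 196 listed genes. Of the 5, 0 were called, against 1.53% of the listed genes called higher. Like the other lists, this one was chosen with earlier results of these data known. The presence of these 5 genes and their shared direction are therefore not a separate result. Nmur1, which encodes a neuromedin U receptor, had the largest difference of them, 1.51 on the log2(TPM + 1) scale (limma, adjusted p = 0.0863). Cebpb, which encodes a transcription factor of inflammatory responses, differed by 0.77, Tpbg by 0.56 and Trpv1 by 0.23 on the same scale, with overlap between the groups for all 3.

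**Figure D3:**
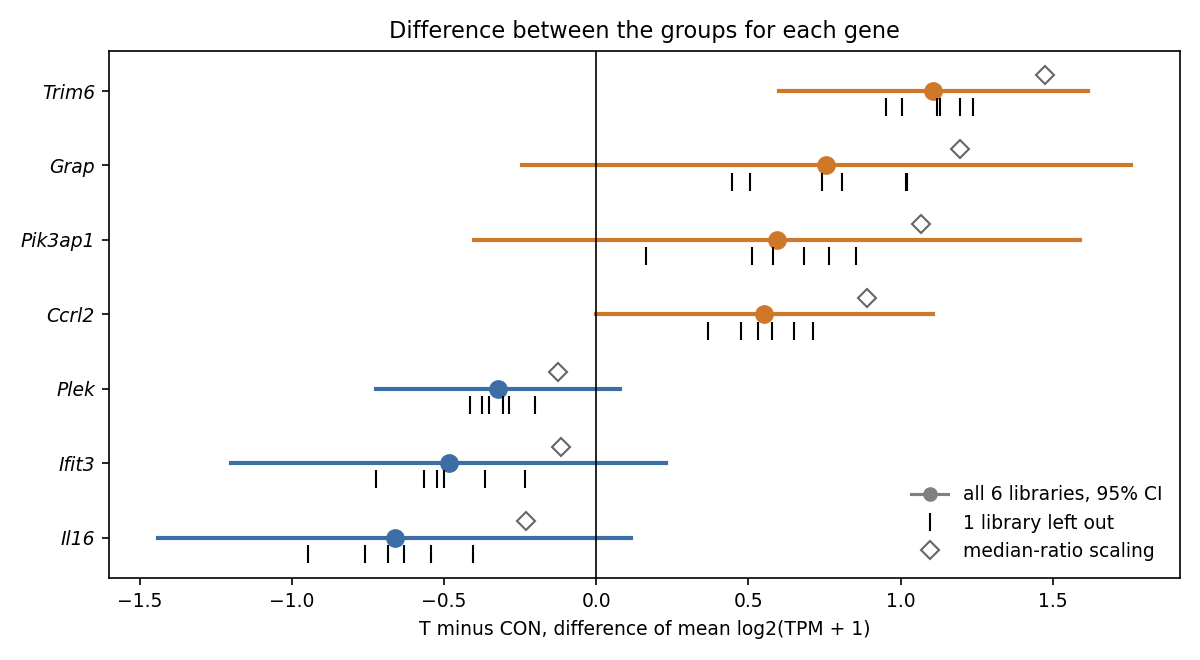
Difference between the groups for each gene. The x axis is T minus CON in mean log2(TPM + 1), circles with lines are the estimate from 6 libraries with its 95% confidence interval from limma, black ticks are the estimates with 1 library left out, and open diamonds are the estimates after median-ratio scaling. The interval lies entirely above 0 for Trim6, at 0.60 to 1.61, and reaches below 0 for Ccrl2, Grap and Pik3ap1, while those of Plek, Ifit3 and Il16 reach above 0.

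Each gene was also tested on its own by exact permutation of the libraries between the groups (two-sided). The 20 possible assignments allow no p below 0.10, so that no gene could reach 0.05. The exact p was 0.10 for Trim6, Ccrl2 and Plek, 0.20 for Il16, Grap and Pik3ap1, and 0.30 for Ifit3.

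By mean TPM over the 6 libraries the order was Pik3ap1, Grap, Trim6, Il16, Ifit3, Ccrl2 and Plek, with ranks of 59, 61, 81, 90, 102, 103 and 153 among the 196 listed genes. Each gene overlapped the next in this order in its range over the libraries. The 4 genes higher in T had a median difference of 0.67 on the log2(TPM + 1) scale against 0.82 over all 67 listed genes higher in T. The 3 genes lower in T had a median of -0.49 against -0.78 over all 129 listed genes lower in T. Together the 7 genes summed to between 7 and 8.33 TPM in the CON libraries and to between 8.57 and 13.61 TPM in the T libraries. All listed genes summed to between 1347 and 1776 TPM in the CON libraries and to between 880 and 1253 TPM in the T libraries. The sums of the 7 mix 4 genes higher and 3 lower in T, all selected on this contrast, and are not a separate result.

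**Figure D4:**
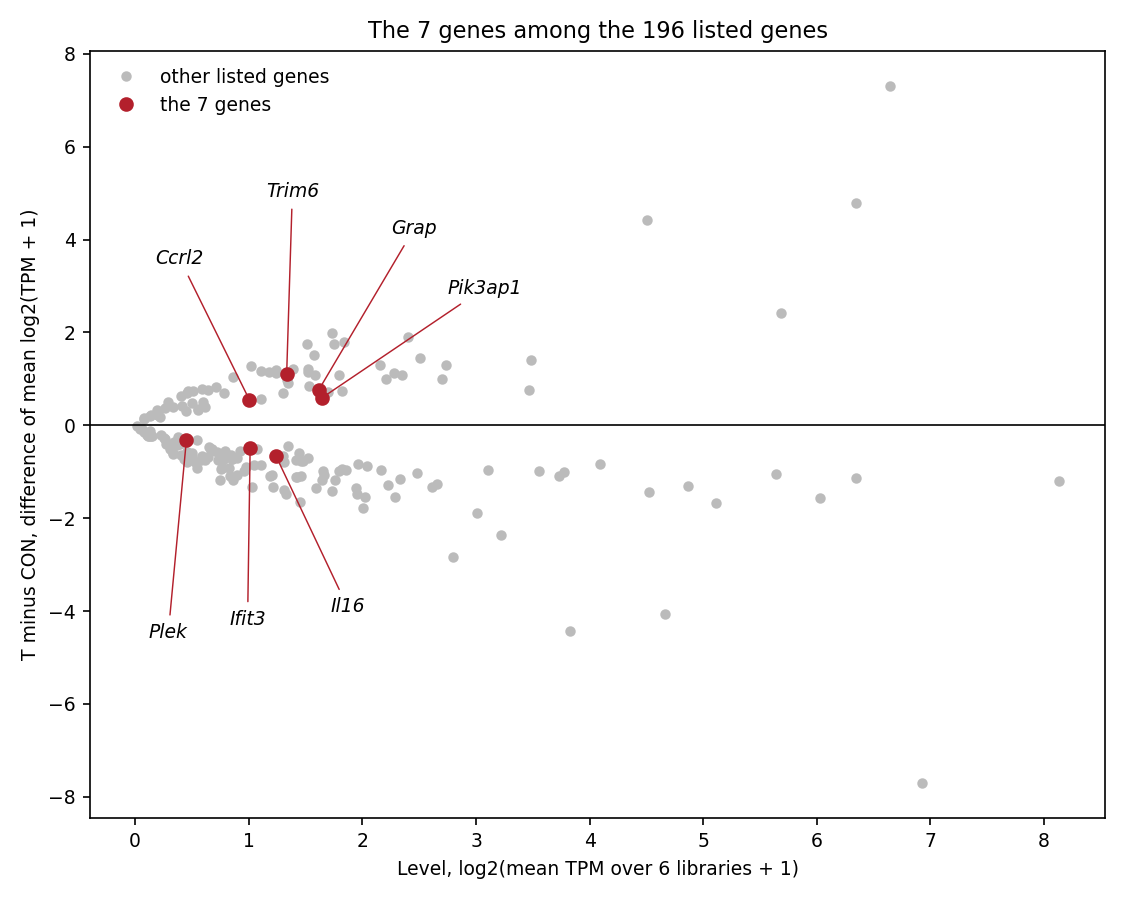
The 7 genes among the 196 listed genes. The x axis is the level as log2 of the mean TPM over 6 libraries plus 1, the y axis is T minus CON in mean log2(TPM + 1), red points are the 7 genes and grey points are the other listed genes. The 7 genes sit in the low part of the level range, 4 above the line at 0 and 3 below it, and within the band of differences of other listed genes at the same level.

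The size of the differences depended on the pseudocount and on how libraries were set to a common scale. With 0.1 TPM in place of 1 TPM added before the logarithm, the difference was -0.97 for Plek, -1.10 for Il16, -0.88 for Ifit3, 1.04 for Ccrl2, 1.17 for Grap, 0.82 for Pik3ap1 and 1.90 for Trim6 on the log2 scale, and none of the 7 was called. Over the 104 listed genes above 0 in every library, the median-ratio factors were 1.46, 1.31 and 1.49 for the CON libraries and 0.80, 0.90 and 0.77 for the T libraries, and dividing by them moved the median difference of all listed genes from -0.54 to -0.23. After this scaling, which takes the selected genes as its own reference, all 4 genes with higher means in T were above every CON library in every T library, against 25.0% of the listed genes, and Plek overlapped, so that 0 of the 7 were below, against 15.8% of the listed genes. Plek then differed by -0.12, Ifit3 by -0.12 and Il16 by -0.23, while Trim6 differed by 1.47, Grap by 1.20, Pik3ap1 by 1.07 and Ccrl2 by 0.89 on the log2 scale of the scaled values plus 1. No gene of the 7 changed sign.

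Correlations among the 7 genes within the groups ran from strongly negative to strongly positive. After subtracting each group mean of log2(TPM + 1), the correlation over the 6 libraries was highest for Ccrl2 with Trim6 (r = 0.88), Grap with Trim6 (r = 0.82) and Grap with Ccrl2 (r = 0.69), and lowest for Plek with Ifit3 (r = -0.69) and Plek with Trim6 (r = -0.61). These are descriptions over libraries that share their totals, with 4 degrees of freedom left after the group means. Trim6, Ccrl2 and Grap each had their highest CON value in CON 2 and their highest T value in T 3. Pik3ap1 did not share this order, since its highest values were in CON 3 and T 1. Listed genes outside the 7 also had their highest values in CON 2 and T 3, among them Efna3 and Nmur1. Rps13-ps2 and Gm21890, which had lower means in T, did so too. The share of all listed genes with these extremes was not counted.

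Il16 and Plek were both highest in CON 1 and lowest in T 1. The 3 fat-cell markers in the table, of 10 looked for, had the same extremes. Fabp4, Cfd and Car3, which encode a fatty acid binding protein, adipsin and a carbonic anhydrase of fat cells, summed to 15.53, 4.78 and 7.99 TPM in CON 1 to CON 3 and to 0.40, 3.82 and 1.97 TPM in T 1 to T 3. All 3 had lower values in every T library than in every CON library, as did 42.3% of the listed genes, and 0 of them were called, against 2.55% of the listed genes called lower. The listed genes Etaa1os and Cyp2e1, which are outside this marker list, were also highest in CON 1 and lowest in T 1. The share of all listed genes with these extremes was not counted. Plek was lower in CON 3 than in CON 2, while the sum of the markers was higher there. The part of the fat-cell markers in the differences of Il16 and Plek was not tested.

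**Figure D5:**
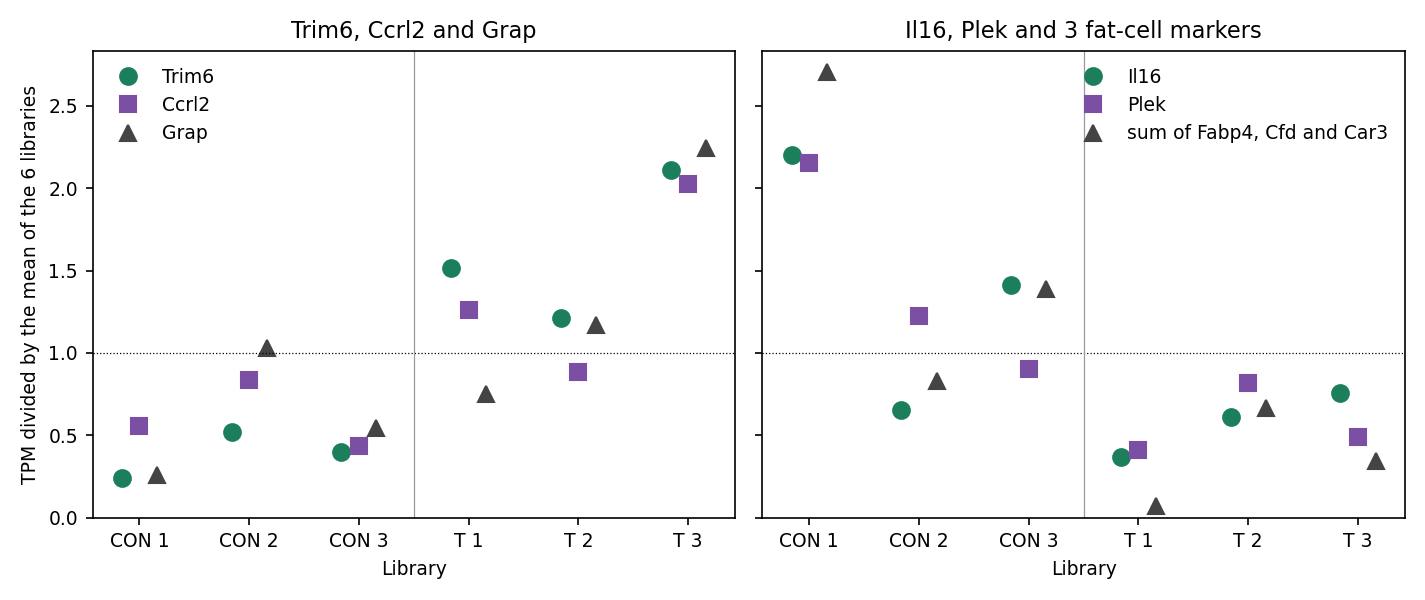
Level in each library relative to the mean of the 6 libraries. The y axis is TPM divided by the mean TPM of the 6 libraries, the x axis gives the libraries, and the vertical line separates CON from T. The left panel shows Trim6, Ccrl2 and Grap, each highest in T 3, and the right panel shows Il16, Plek and the summed fat-cell markers, each highest in CON 1 and lowest in T 1.

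For each of the 7 genes the listed genes most like it were taken as the 2 with the highest correlation within the groups, among those with a mean of at least 0.5 TPM. For Il16 these were Gm11243 (r = 0.97) and Gm31545 (r = 0.94), and for Plek they were Etaa1os (r = 0.96) and Cyp2e1 (r = 0.90). For Grap they were Gm28959 (r = 0.93) and 4933439K11Rik (r = 0.89), and for Pik3ap1 they were Gm20937 (r = 0.99) and Gm10095 (r = 0.98). Ccrl2 was most like 4930458B22Rik (r = 0.97) and Rps13-ps2 (r = 0.93), Ifit3 was most like 4930540I17Rik (r = 0.89) and Gm21530 (r = 0.84), and Trim6 was most like Or2ag2b (r = 0.94) and Gm21890 (r = 0.94). Each was picked as one of the highest among 134 or 135 correlations over 6 libraries, so these r values are descriptions of a selection. They compare libraries within a group only, and 4 of these genes had lower means in T where their partner had a higher one. Without subtracting the group means, r over the 6 libraries was -0.15 for Grap with Gm28959, -0.09 for Pik3ap1 with Gm20937, -0.33 for Ccrl2 with Rps13-ps2 and -0.48 for Trim6 with Gm21890. Plek and Etaa1os lie on the same chromosome with 901229 bases between them, and Trim6 and Or2ag2b do so with 2528976 bases between them. Etaa1os, a long non-coding RNA gene, was at 18.29, 3.79 and 3.04 TPM in CON 1 to CON 3 and at 1.48, 2.35 and 1.81 TPM in T 1 to T 3, in the same order of libraries as Plek.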

How the data were processed

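The authors deposited 1 table of 196 genes with a TPM value for each of 6 testis libraries. It also holds group means and columns of fold change, log2, p-value and significance. The authors' fold changes, p-values and significance marks entered no test here and served only to describe the selection. Per the labels, reads were trimmed with fastp, aligned to GRCm39 with HISAT2, quantified with RSEM and compared with DESeq2. The study's methods name other trimming and counting tools, another library kit and FPKM. All 196 genes were marked significant in the authors' columns. Read counts are absent from the table, which leaves count models unusable. The columns headed T and CON equal the means of the n and con libraries for all 196 genes, within 1e-06.

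Differences were fitted with limma 3.58.1 (R 4.3.3) on the log2(TPM + 1) values, and p-values were adjusted by Benjamini-Hochberg over all 196 genes. This step was tested on simulated data set well above the levels of the 7 genes, so that test does not cover values near 1 TPM. Exact permutation tests used scipy 1.17.1. Alternatives were pseudocounts of 0.1 and 0.5 TPM, a minimum mean of 1 TPM, median-ratio scaling, a trended robust prior, a replicate block and the omission of each library. The 7 genes, the gene lists and the motifs were chosen with earlier results of these data known. By rule the text names all 7, the genes most like them and listed genes of these lists. Positions, exons and promoters came from GENCODE vM39 on GRCm39, which held 195 of the 196 identifiers. Exon windows of 50 and 150 bases were counted in the genome on both strands. A search for a PI3K-binding motif in the proteins was not run. Of the motifs searched, 1 is not reported here.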

Additional observations from a re-analysis of the deposited data

How the results depend on the processing

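Of 83 values of the 7 genes under the alternatives, 75 kept their direction and their side of the threshold, 8 kept the direction but lost the call, all of them of Trim6, and none reversed. The genes other than Trim6 had no call to lose, and the direction of each gene was part of its selection. Trim6, the 1 gene called, kept its call in 4 of its 12 alternatives. The number of the 7 genes called was 1, and it was 0 with a pseudocount of 0.1 TPM, with a minimum mean of 1 TPM (which drops Plek from the fit), with a trended robust prior and with a replicate block. Without 1 library it ranged from 0 to 1, and was 0 without CON 1, CON 3, T 1 or T 3. For Trim6 the adjusted p from limma was 0.0572, 0.0672, 0.0567 and 0.116 under the first 4 of these, and the cause was not tested. The number of the 7 genes whose groups did not overlap was 3, it was 4 after median-ratio scaling, and it ranged from 4 to 5 without 1 library, where fewer libraries have to be separate.

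Over all listed genes 8 were called, 3 higher and 5 lower in T. The count was 15 with a pseudocount of 0.1 TPM, 22 with 0.5 TPM, 5 with the minimum mean, 3 with the replicate block and 19 after median-ratio scaling, of which 17 were higher and 2 lower. It was 3 without CON 1, 35 without CON 2, 25 without T 2 and 3 without T 3. At an unadjusted p under 0.05 with a difference of at least 1, 50 listed genes passed. Same-numbered libraries of the groups correlated at 0.04, -0.03 and 0.10 in their deviations from the group means, and not every library correlated best with its own number, so the numbers were not taken to pair mice and the block serves only as a check. The reads behind these values, most of them near 1 TPM for the 7 genes, are unknown, so how much of the spread between libraries is counting error was not assessed.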

Other observations

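The genes most like Ccrl2 and Trim6 within the groups are neighbours of each other. The long non-coding RNA gene 4930458B22Rik (chromosome 7, 106342937 to 106413331, minus strand), which was most like Ccrl2, and Or2ag2b (chromosome 7, 106413336 to 106442546, plus strand), an olfactory receptor gene, which was most like Trim6, lie head to head on GRCm39 with 4 bases between them. Trim6 lies on the same chromosome with 2458577 bases between it and 4930458B22Rik, and Ccrl2 lies on chromosome 9. Or2ag2b was at 1.60, 4.74 and 2.26 TPM in CON 1 to CON 3 and at 8.04, 5.20 and 12.16 TPM in T 1 to T 3. 4930458B22Rik was at 0.25, 1.34 and 0.11 TPM in CON 1 to CON 3 and at 2.32, 1.17 and 4.55 TPM in T 1 to T 3. Both had their highest CON value in CON 2 and their highest T value in T 3, as Ccrl2, Trim6 and Grap did. Each was picked for its correlation within the groups, so this shared order follows from how the 2 genes were chosen.

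The high Pik3ap1 value of T 1 had a counterpart in Gm10095, a processed pseudogene on chromosome 12. This gene was picked for its correlation with Pik3ap1 within the groups, so a high value in T 1 was part of its selection. Gm10095 was at 0, 0 and 0.57 TPM in CON 1 to CON 3 and at 12.29, 0.64 and 2.00 TPM in T 1 to T 3.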
